A study of Mus musculus with 18 samples.

Results

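The genes described here are 83 of 12697 measured genes (0.654%) that had no read in any of the 3 control precipitates of mouse dorsal root, yet at least 3 reads in each of the 3 Kif5A precipitates of the same tissue and at least 1 read in the control precipitates of sciatic nerve. They were found by adding up, for each gene name, the raw read counts of the 16878 transcripts that the deposited tables of both tissues list. The genes were thus chosen by the counts of dorsal root Kif5A, dorsal root IgG and sciatic nerve IgG, and their values in those groups are given as a description, with no test. The input libraries and the Kif5A precipitates of sciatic nerve had no part in the choice.

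RNA came from axoplasm of C57B6 mice, a lysate of ground nerve tissue cleared by centrifugation and enriched for the content of axons. Dorsal roots and sciatic nerves of the same animals were used, 5 animals were pooled per biological repeat, and 3 independent repeats were made. Each tissue gave 3 groups of 3 libraries: a precipitate with a rabbit antibody to Kif5A, a precipitate with rabbit IgG as the isotype control, and input, the lysate before precipitation. About 200 ug of lysate met 10 ug of antibody for 3 h, and libraries were made with SMART-Seq v4, which amplifies full-length cDNA by PCR. All 18 libraries share the strain, no genotype or treatment is named for any group, and the sources used here give no age or sex of the animals. Kif5A was precipitated with 1 antibody.

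Kif5A is a heavy chain of neuronal kinesin-1, the motor that moves organelles, vesicles and RNA-protein particles along microtubules towards the axon tip. Many axonal mRNAs are moved in such particles, and local translation of them serves growth, maintenance and repair. An isotype control shows which RNA is recovered by antibody and beads without the target, so a gene with no read in it has no measured background, and a ratio to it has no finite value.

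Library totals over rows with a gene name ran from 11584418 to 22580824 reads. Myelinating Schwann cell genes (17 of 18 listed genes measured) summed to between 23900 and 33710 counts per 1000000 reads (CPM) in dorsal root input and between 20700 and 27290 CPM in sciatic nerve input. Sensory neuron genes (7 of 20 measured) summed to between 168 and 200.4 CPM and between 140.1 and 231.8 CPM in those inputs. Adipocyte genes (8 of 11 measured) summed to between 120.2 and 216.8 CPM in dorsal root input and between 3814 and 13310 CPM in sciatic nerve input, and reached 79810 CPM in a sciatic nerve IgG library. Reads of glial and adipocyte genes were thus present in the inputs beside those of neurons. No member of these 3 lists is among the 83 genes.

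A smaller share of the transcripts of the 83 genes than of all transcripts was protein-coding, and a larger share was antisense or long intergenic RNA. Of the 84 transcripts of these genes found in GENCODE M21 (GRCm38), 53 (63.1%) were protein-coding, against 70.9% of all 16764 annotated transcripts. Sets chosen in like manner also had low shares: 64.2% for genes absent from sciatic nerve IgG but not from dorsal root IgG, and 41.7% for those absent from all 6 IgG libraries. Antisense transcripts made up 7 (8.33%, against 2.49%), long intergenic RNAs 5 (5.95%, against 2.19%) and processed pseudogenes 4 (4.76%, against 2.71%). A further 8 were retained-intron forms of genes such as Limk1, Zbtb48, Psmc3ip and H2-Q5 (9.52%, against 12.7%), and 1 each was a small nucleolar RNA and a miscellaneous RNA. The median transcript length was 1986 bases, against 2324 bases for all. The gene Gm16938 was not found in the annotation.

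Sequences are shown first for processed pseudogenes of ribosomal protein genes. A pseudogene read that falls in a stretch without mismatch belongs equally to its parent gene. The first pair sets 100 bases of Gm13573, a processed pseudogene at chr2:60275074-60275173 on the minus strand of GRCm38, against the coding part of Rpl10a, which encodes a protein of the large ribosomal subunit. The next pair sets Rpl23a-ps2, at chr11:70879608-70879707 on the plus strand, against the coding part of Rpl23a, another large subunit protein. Capitals mark the mismatches, 6 in each pair, and sequences run 5′ to 3′ from GENCODE M21. Each pair is the ungapped 100-base stretch of coding part with the most mismatches, so it is not typical of the whole alignment.
Gm13573: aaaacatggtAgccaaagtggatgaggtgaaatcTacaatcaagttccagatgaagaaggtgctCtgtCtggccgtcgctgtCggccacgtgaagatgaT
Rpl10a: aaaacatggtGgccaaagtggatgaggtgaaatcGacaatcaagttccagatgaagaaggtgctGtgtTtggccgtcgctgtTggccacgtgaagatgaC
Rpl23a-ps2: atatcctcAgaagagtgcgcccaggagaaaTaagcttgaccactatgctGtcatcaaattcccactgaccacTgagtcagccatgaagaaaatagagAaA
Rpl23a: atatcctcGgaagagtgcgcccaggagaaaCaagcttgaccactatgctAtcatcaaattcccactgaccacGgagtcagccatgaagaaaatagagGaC

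Over its whole alignment Gm13573 was 94.5% identical to Rpl10a, with 13 mismatches apart from gaps in 654 aligned bases. Rpl23a-ps2 was 94.1% identical to Rpl23a, with 19 mismatches apart from gaps in 477 aligned bases. For Rpl23a-ps2, 36 other genes also matched over more than 80% of its length. The parents were not absent from the control: Rpl10a had 628, 774 and 175 reads and Rpl23a 458, 483 and 1274 reads in the 3 dorsal root IgG libraries. The sources used here do not say how reads with several matches were assigned, so the counts of both pseudogenes are uncertain. Among all 84 transcripts, 7 had a stretch of at least 100 bases that was at least 98% identical to another gene. Cox7a2l shared 201 identical bases with the pseudogene Gm6969, which had 74 reads over the dorsal root IgG libraries. Zfp709 shared 188 identical bases with 1700026F02Rik. The counts of Cox7a2l and Zfp709 are thus uncertain in the same way.

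The small nucleolar RNA Gm23527 lies at chr6:116371939-116372068 on the minus strand. The protein-coding gene March8 lies across it on the other strand. Use of strand in the counting is not stated, and the part of March8 RNA in its counts was not tested. Small nucleolar RNAs guide chemical changes of ribosomal RNA, and those of the H/ACA class end shortly after the letters ACA, shown in capitals. The triplet starts at base 126 of 130, with 2 bases after it.
Gm23527: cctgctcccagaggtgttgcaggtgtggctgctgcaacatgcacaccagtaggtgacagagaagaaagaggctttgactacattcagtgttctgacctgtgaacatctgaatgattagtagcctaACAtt

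The letters ACA stand in the last 6 bases of 690 of 1507 annotated snoRNA transcripts (45.8%). Gm23527 had 19, 12 and 9 reads in dorsal root Kif5A and 22, 2 and 10 in dorsal root input. In sciatic nerve it had 22, 0 and 0 reads in IgG, 14, 0 and 3 in Kif5A, and 25, 13 and 15 in input. All of its sciatic nerve IgG reads thus stood in replicate 1.

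The 83 genes were rare RNAs in input. Their median level in dorsal root input was 1.16 CPM, with single genes between 0.0371 and 6.14 CPM, while the median of all 12697 genes was 12.4 CPM. Per kilobase of transcript, which allows levels of different genes to be compared, the median was 0.597 CPM per kb in dorsal root input (82 genes with a length), against 5.09 CPM per kb for all genes. Sciatic nerve input gave nearly the same picture, with a median of 1.21 CPM, or 0.619 CPM per kb against 5.35 CPM per kb. In dorsal root Kif5A the summed counts of a gene over 3 libraries ran from 17 to 574, with a median of 68. The 3 dorsal root IgG libraries held 43342291 reads in all, and 3 reads of that total stand for 0.0692 CPM, a usual limit for a count of 0. Such a limit covers counting error alone: the reads are PCR copies with no molecular identifier. It also makes no allowance for the choice of genes by these 0 counts, so it does not bound their level.

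**Figure D1:**
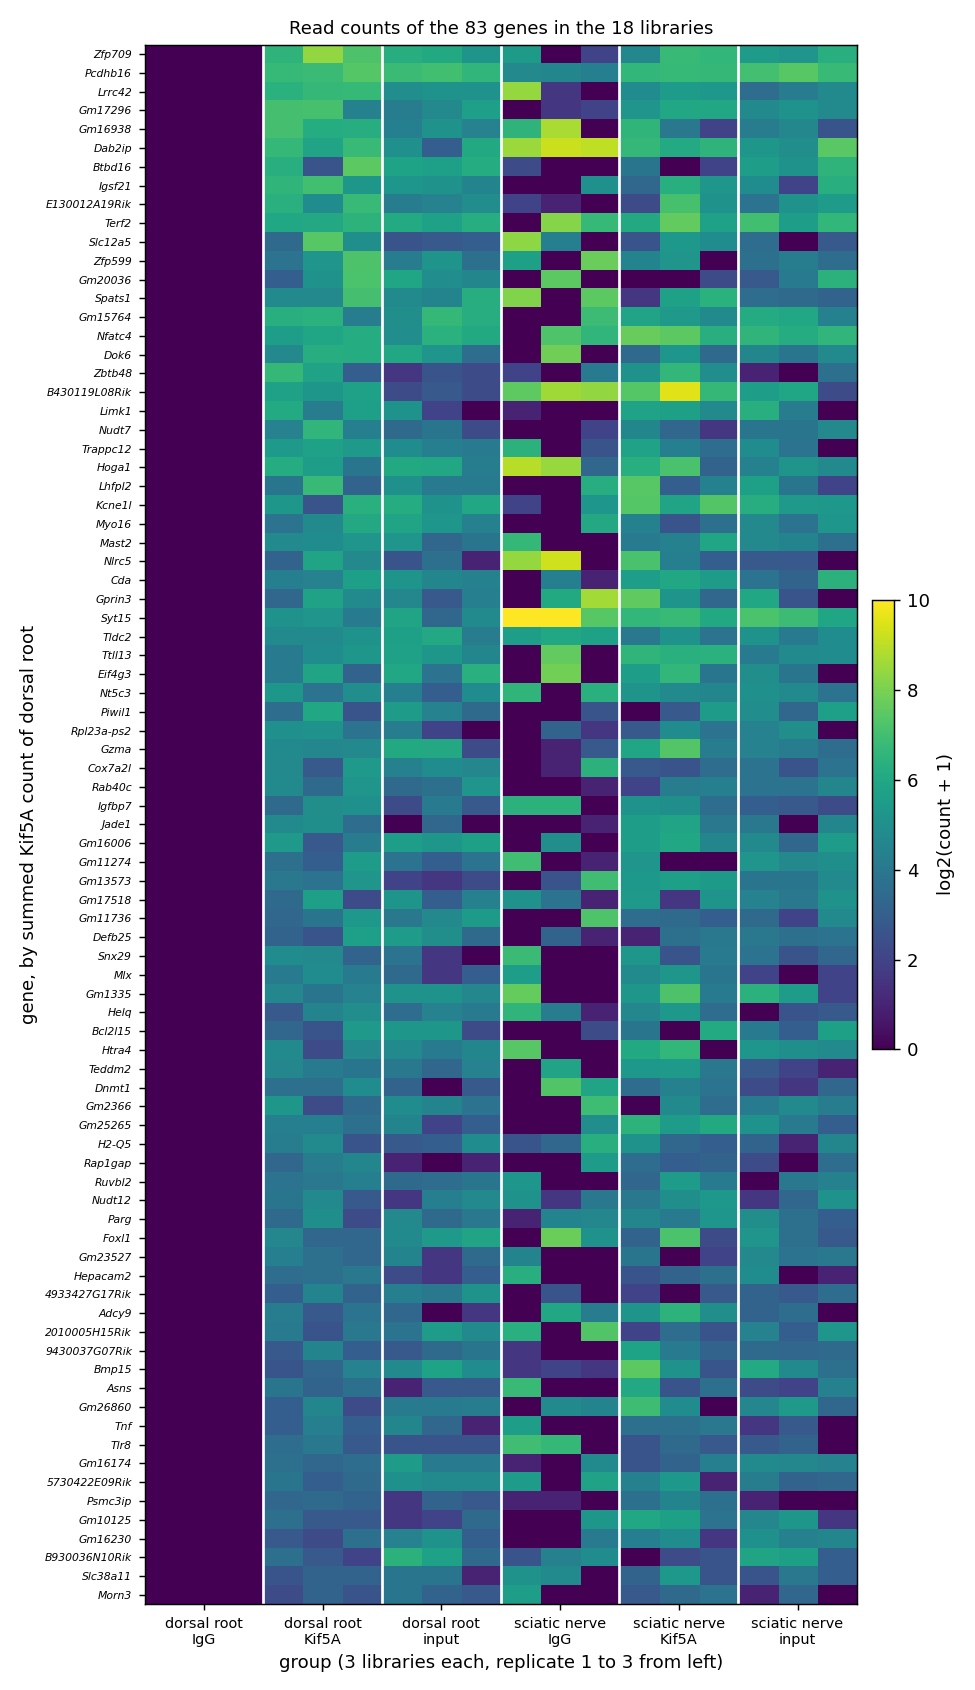
Read counts of the 83 genes (lines, ordered by their summed dorsal root Kif5A count) in the 18 libraries (columns, 3 per group), coloured by log2(count + 1). The dorsal root IgG columns are empty by the choice of genes, and the sciatic nerve IgG columns alternate between empty and filled fields within 1 gene.

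Over the whole table, absence from the control was more frequent among genes with a low input level. Of the 455 genes under 0.5 CPM in dorsal root input, 5.27% had no read in any dorsal root IgG library, and of the 814 genes from 0.5 to 1 CPM, 6.51% had none. That share was 5.45% of 1248 genes from 1 to 2 CPM, 1.96% of 1428 genes from 2 to 4 CPM, 0.0692% of 1445 genes from 4 to 8 CPM, and 0 of 7307 genes at 8 CPM or more. Within the input range of the 83 genes lay 4812 genes, of which 174 (3.62%) had no read in dorsal root IgG and 4 (0.0831%) none in dorsal root Kif5A. If the dorsal root IgG libraries had held each of the 83 RNAs at its share in dorsal root input, they would have held a median of 50.4 reads of a gene, from 1.61 for Rap1gap to 266 for Pcdhb16. For 55 genes this number was at least 30 reads. The genes were chosen for having no read in those libraries, so the number restates their input level and tests nothing.

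**Figure D2:**
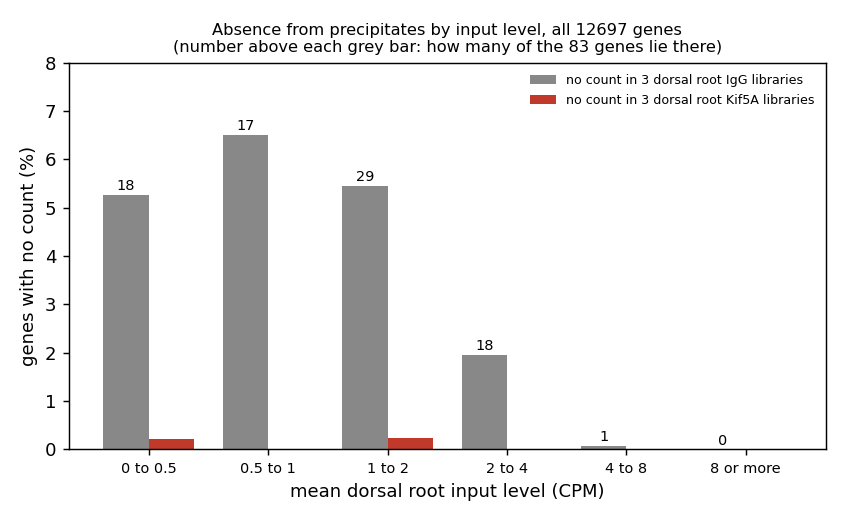
Percent of all 12697 genes with no read in the 3 dorsal root IgG libraries (grey) or the 3 dorsal root Kif5A libraries (red), by mean dorsal root input level in CPM. The number above each grey bar is how many of the 83 genes lie in that range: 18, 17, 29, 18, 1 and 0 from left to right.

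Absence held for the transcripts that both tables list, not always for the gene. Further transcripts in the dorsal root table alone belonged to 11 of the 83 genes, and 10 of these had dorsal root IgG reads on them. Parg, which removes poly(ADP-ribose) from proteins, had 90, 84 and 77 such reads in the 3 IgG libraries, and Nt5c3, a nucleotidase of pyrimidine breakdown, had 48, 53 and 50. The peroxisomal coenzyme A hydrolase Nudt7 had 111, 2 and 27, so that for Parg, Nt5c3 and Nudt7 all 3 control libraries held reads of the gene. Snx29, a sorting nexin, had 0, 21 and 185. Fewer stood on further transcripts of the other 6 genes, Eif4g3, Psmc3ip, Dab2ip, Rap1gap, Mast2 and Jade1. No further transcript in either table belonged to 69 of the 83 genes.

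The edge of the choice was narrow. B930036N10Rik, an antisense RNA, entered at the lowest allowed Kif5A count with 12, 6 and 3 reads, and 7 genes entered with a lowest count of 4. Just outside stood Hpdl with 6, 9 and 2 reads and Slurp1 with 14, 2 and 10. Another 41 genes met every other condition but had 1 read in dorsal root IgG, and 24 were left out because sciatic nerve IgG held no read of them either.

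Reads of the 83 genes in sciatic nerve IgG sat mostly in single libraries. Only 13 genes had reads in all 3 of them, 34 had reads in 2 and 36 in 1. A median of 95% of a gene's sciatic nerve IgG reads came from its highest library, where the choice asked for no more than 1 read in 1 library. In the groups that took no part in the choice that share was 50% (dorsal root input), 57.2% (sciatic nerve Kif5A) and 52.6% (sciatic nerve input). In dorsal root Kif5A, where the choice demands reads in every library, it was 50%. For 46 genes (55.4%) the highest sciatic nerve IgG library held at least 90% of the reads, against 10.7% of all genes. All genes are not matched in level, with a median of 15.3 CPM in sciatic nerve IgG against 1.11 CPM for the 83. Their share was 9.41% in dorsal root IgG, but 1.26% in sciatic nerve Kif5A and 0.803% in sciatic nerve input. No single library supplied the sciatic nerve IgG reads of the 83 genes: the highest was replicate 1 for 30 genes, replicate 2 for 24 and replicate 3 for 29. The summed sciatic nerve IgG count was under 10 for 15 genes and at least 100 for 36.

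**Figure D3:**
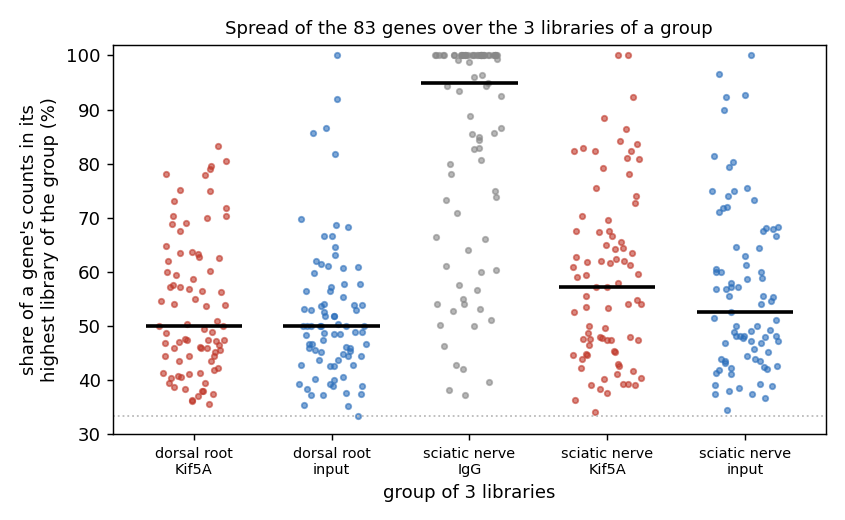
Share of a gene's reads found in its highest library of a group, in percent, for the 83 genes (points) with the median (black line). The dotted line marks an even spread over 3 libraries, and sciatic nerve IgG has the highest median at 95%.

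The scatter is also seen in the coefficient of variation, the SD divided by the mean of the 3 libraries. Its median over the 83 genes was 1.61 in sciatic nerve IgG, 0.684 in sciatic nerve Kif5A, 0.633 in sciatic nerve input, 0.54 in dorsal root input and 0.536 in dorsal root Kif5A, which the choice holds down. All genes had medians of 0.585, 0.38, 0.377, 0.225 and 0.335 in the same order. The mirrored choice, genes absent from sciatic nerve IgG but not from dorsal root IgG, found 104 genes, with a median coefficient of variation of 1.4 in dorsal root IgG, their own filled control. These had a median level of 1.19 CPM in dorsal root input and 1.1 CPM in sciatic nerve input. Of them, 29 had reads in all 3 dorsal root IgG libraries, 39 in 2 and 36 in 1.

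Among genes of the cell surface, Pcdhb16, a clustered protocadherin that mediates contact between neurons, had the most reads of the 83 genes in both inputs. It had 114, 125 and 95 reads in dorsal root input and 130, 169 and 109 in sciatic nerve input, or 6.14 ± 0.66 and 8.95 ± 4.34 CPM (SD, n = 3). Its Kif5A precipitates held 103, 112 and 166 reads in dorsal root and 97, 103 and 101 in sciatic nerve. Sciatic nerve IgG held 25, 23 and 19 reads, fewer than any Kif5A or input library of that tissue and with little spread. Per kilobase its level was 1.18 CPM per kb in dorsal root input, against a median of 0.597 CPM per kb for the 83 genes. Igsf21, an immunoglobulin-domain adhesion protein of synapses, had 93, 125 and 38 reads in dorsal root Kif5A, above the 37, 33 and 22 of dorsal root input. That order of the libraries held for 27.1% of all genes and 21.7% of the 83. Its sciatic nerve IgG reads were 0, 0 and 32, and sciatic nerve Kif5A (9, 78 and 36) overlapped sciatic nerve input (28, 3 and 76).

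Of vesicle and signalling genes, Syt15 (chr14:34219595-34230420), a synaptotagmin, had the most control reads. It had 0 reads in dorsal root IgG and 1032, 1036 and 172 in sciatic nerve IgG, or 34.5 ± 23.3 CPM (SD, n = 3). Kif5A held 33, 36 and 17 reads in dorsal root and 98, 111 and 67 in sciatic nerve. In sciatic nerve every Kif5A library was below every IgG library. Dab2ip (chr2:35558266-35730994), a GTPase-activating protein for Ras, showed the same order with 360, 589 and 534 reads in sciatic nerve IgG and 102, 68 and 91 in sciatic nerve Kif5A. In dorsal root it had 100, 57 and 111 reads in Kif5A and 32, 7 and 67 in input. Tldc2 (chr2:157087055-157096482), which carries a TLDc domain, had 47, 61 and 52 reads in sciatic nerve IgG and 15, 33 and 13 in sciatic nerve Kif5A. Its dorsal root Kif5A counts were 27, 26 and 33.

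Syt15, Dab2ip and Tldc2 were the only 3 of the 83 genes (3.61%) whose Kif5A libraries of sciatic nerve all lay below the IgG libraries, against 4.57% of all genes. The reverse, with every Kif5A library above every IgG library of sciatic nerve, held for 15 genes (18.1%, against 11.3% of all genes), among them Pcdhb16, Gzma, Kcne1l, Limk1, Rab40c and Zbtb48. Because sciatic nerve IgG took part in the choice, these counts are descriptions.

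**Figure D4:**
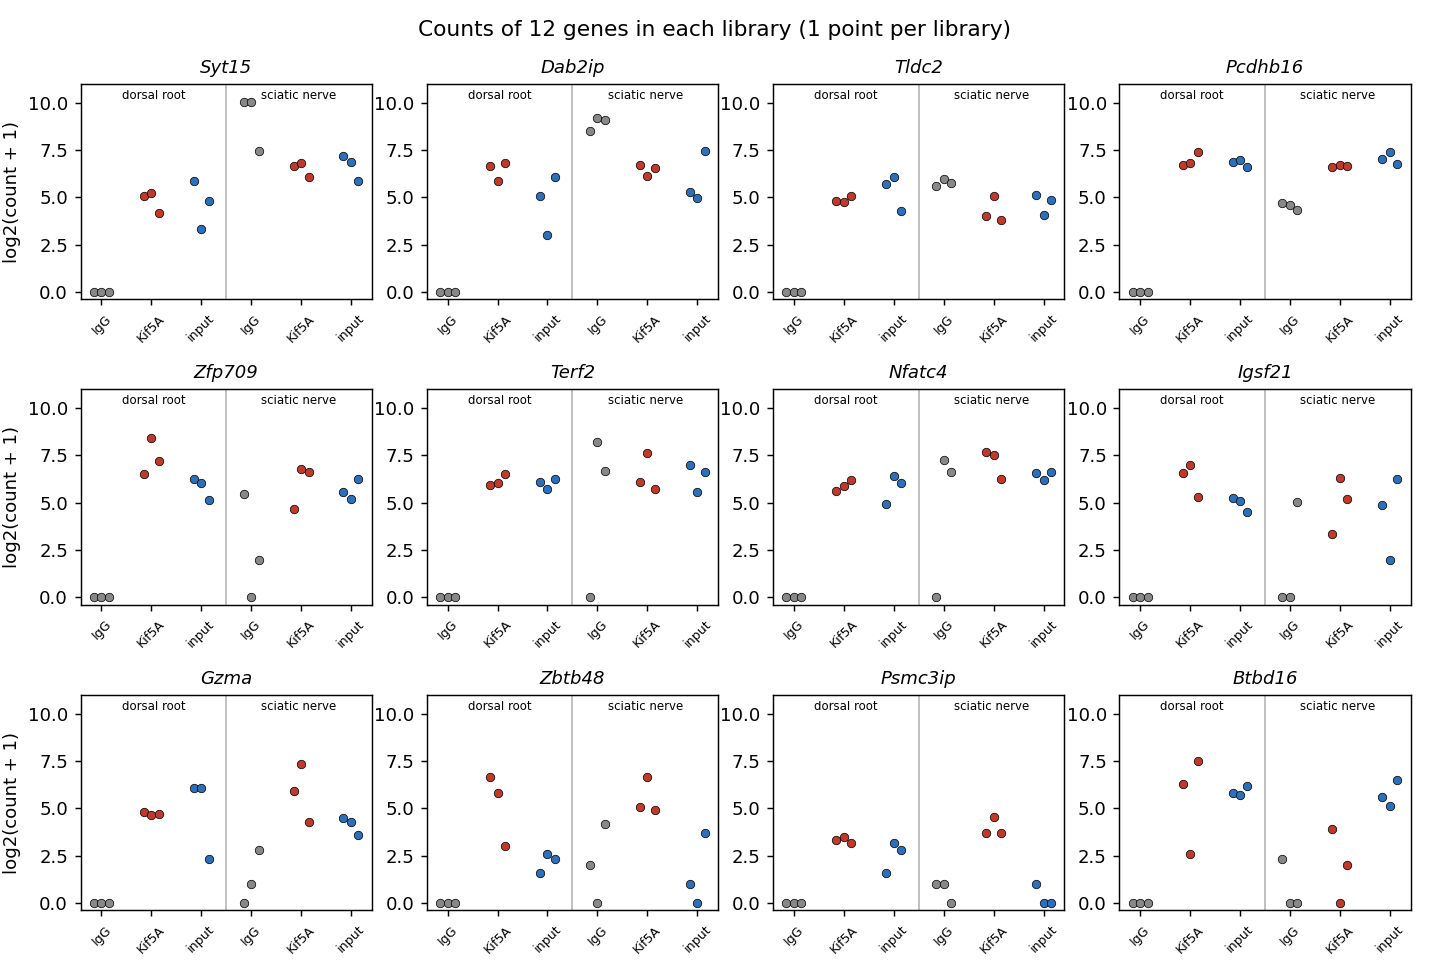
Read counts, as log2(count + 1), of 12 of the 83 genes in each of the 18 libraries (1 point per library), with dorsal root left and sciatic nerve right of the line in each panel. In sciatic nerve, IgG lies above Kif5A in every library for Syt15, Dab2ip and Tldc2, and below it for Pcdhb16, Gzma, Zbtb48 and Psmc3ip.

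Among regulators of small GTPases and proteins of the cytoskeleton, Rap1gap, which switches off Rap1, had 1, 0 and 1 reads in dorsal root input and 9, 18 and 23 in dorsal root Kif5A, and its sciatic nerve IgG reads were 0, 0 and 44. Its dorsal root input level was 0.0371 ± 0.0327 CPM (SD, n = 3), the fewest dorsal root input reads of the 83 genes. The retained-intron form of Limk1, a kinase that phosphorylates cofilin, had 68, 18 and 49 reads in dorsal root Kif5A and 34, 3 and 0 in dorsal root input, with 1, 0 and 0 in sciatic nerve IgG. Rab40c, a Rab GTPase with a SOCS box, had 26, 10 and 36 reads in dorsal root Kif5A, which overlapped 10, 12 and 36 in input. Myo16, an unconventional myosin of neurons, had 13, 26 and 65 reads in dorsal root Kif5A and 57, 37 and 20 in input. Gprin3, a neurite growth protein that interacts with G proteins, had 0, 66 and 391 reads in sciatic nerve IgG, 9, 53 and 26 in dorsal root Kif5A and 24, 6 and 19 in dorsal root input. Limk1, Rab40c, Myo16 and Gprin3 thus overlapped between dorsal root Kif5A and input. Rap1gap lay higher in Kif5A without overlap, as did 27.1% of all genes.

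Several genes encode proteins that act in the nucleus. Zfp709 (chr8:71882019-71895727), a zinc finger gene, had the most dorsal root Kif5A reads of the 83 genes, 90, 337 and 147 or 12.2 ± 9.3 CPM (SD, n = 3), above 75, 66 and 35 reads in dorsal root input. Its sciatic nerve Kif5A reads (24, 111 and 98) overlapped those of input (46, 36 and 76). Another zinc finger gene, Zfp599, had 13, 36 and 148 reads in dorsal root Kif5A and 18, 35 and 12 in input, so its mean rested on replicate 3. Terf2 (chr8:107069400-107096547), a telomere-binding protein of the shelterin complex, was among the steadier genes, with 61, 65 and 89 reads in dorsal root Kif5A and 68, 52 and 75 in input. Its sciatic nerve IgG counts were 0, 290 and 103. Zbtb48 (chr4:152019774-152027671), a zinc finger protein that binds telomere repeats, had 100, 54 and 7 reads in dorsal root Kif5A and 2, 5 and 4 in input. Dorsal root Kif5A lay above input without overlap for Zfp709 and Zbtb48, as for 27.1% of all genes, and overlapped it for Terf2.

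Nfatc4 (chr14:55823144-55833943), a transcription factor that calcineurin brings to the nucleus, had 48, 58 and 73 reads in dorsal root Kif5A and 29, 83 and 66 in input. In sciatic nerve it had 207, 181 and 76 reads in Kif5A, 0, 151 and 96 in IgG and 93, 73 and 96 in input. E130012A19Rik, listed as Epop in GENCODE and a partner of Polycomb repressive complexes, had 81, 28 and 107 reads in dorsal root Kif5A and 18, 21 and 29 in input. Dnmt1, which copies DNA methylation after replication, had 12, 12 and 28 reads in dorsal root Kif5A and 8, 0 and 6 in input. For Epop and Dnmt1 the Kif5A levels lay above every input library of dorsal root, as for 27.1% of all genes. The forkhead gene Foxl1 had 24, 9 and 9 reads in dorsal root Kif5A and 26, 41 and 57 in input, which overlapped once scaled to library size.

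Ion channels gave 1 of 76 measured genes (1.32%) and solute carriers 2 of 181 (1.1%), against 0.654% of all genes. Kcne1l, an accessory subunit of potassium channels, had 39, 5 and 81 reads in dorsal root Kif5A and 73, 33 and 61 in input, while sciatic nerve Kif5A held 163, 56 and 160 and sciatic nerve IgG 3, 0 and 37. Slc12a5, the neuronal chloride exporter KCC2, had 10, 169 and 31 reads in dorsal root Kif5A and 5, 6 and 7 in input. Replicate 2 held most of its Kif5A reads. Slc12a5 reads in sciatic nerve IgG were 320, 19 and 0. The non-coding form of Slc38a11, a gene of an amino acid transporter family, had 5, 8 and 8 reads in dorsal root Kif5A, within the range of the 14, 14 and 1 in input.

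Of the immune genes, Gzma, a protease of cytotoxic lymphocytes, had 27, 24 and 25 reads in dorsal root Kif5A and 66, 65 and 4 in input. It was the only gene of the lymphocyte list among the 83, and that list summed to between 47.9 and 64.23 CPM in dorsal root input (6 of 15 genes measured). The part of lymphocyte RNA in the Gzma counts was not tested. Nlrc5, which activates genes of antigen presentation, had 349, 624 and 0 reads in sciatic nerve IgG but 6, 6 and 0 in sciatic nerve input. Tlr8, an endosomal receptor for RNA, had 122, 100 and 0 reads in sciatic nerve IgG, 5, 5 and 5 in dorsal root input and 11, 15 and 6 in dorsal root Kif5A. Nlrc5 and Tlr8 thus both had 2 filled and 1 empty sciatic nerve IgG library. The retained-intron form of the class I gene H2-Q5 had 18, 27 and 5 reads in dorsal root Kif5A, and the cytokine gene Tnf had 7, 19 and 7.

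Of the genes with a metabolic or translational role, Hoga1, a mitochondrial enzyme of hydroxyproline breakdown, had 491, 352 and 9 reads in sciatic nerve IgG and 72, 48 and 14 in dorsal root Kif5A. Cox7a2l, a factor for respiratory supercomplexes, had 25, 6 and 41 reads in dorsal root Kif5A and 20, 28 and 24 in input. Eif4g3, a scaffold of translation initiation, had 16, 56 and 8 reads in dorsal root Kif5A, and its 234 sciatic nerve IgG reads stood in replicate 2 alone. Dorsal root Kif5A and input overlapped for Hoga1, Cox7a2l and Eif4g3. Lrrc42, a leucine-rich repeat gene, had even dorsal root counts, 84, 101 and 105 in Kif5A and 29, 33 and 34 in input, and its Kif5A level of 5.98 ± 0.77 CPM compares with 1.79 ± 0.32 CPM in input (SD, n = 3). Its sciatic nerve IgG reads were 349, 2 and 0.

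Bmp15, a growth factor of the oocyte, had 26, 55 and 28 reads in dorsal root input, above its 5, 9 and 21 in dorsal root Kif5A. Input lay above Kif5A in this way for 8.71% of all genes. Piwil1, which silences transposons in the germ line, had 11, 62 and 5 reads in dorsal root Kif5A and 46, 21 and 10 in input. Spats1, a gene of spermatogenesis, had 27, 25 and 132 reads in dorsal root Kif5A and 26, 22 and 74 in input.

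The antisense RNAs each lie across a gene on the other strand, and the counting is not stated to use strand. Within the stretch they share, their reads and those of the partner thus cannot be told apart. B430119L08Rik, opposite Serpina1c, had 52, 39 and 52 reads in dorsal root Kif5A, 4, 6 and 4 in dorsal root input and 186, 383 and 340 in sciatic nerve IgG. Its dorsal root Kif5A libraries thus lay above input without overlap, as for 27.1% of all genes. An overlap with a gene on the other strand was found for 40 of 82 genes with a position (48.8%), against 44.8% of all genes. Among them were Mlx (chr11:101087277-101092207), a partner of glucose-sensing transcription factors, and Psmc3ip (chr11:101091823-101095436), which overlap each other at their ends.

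Few of the 83 genes belonged to the gene lists used. The synaptic vesicle list held Syt15 (1 of 19 measured genes), the Ras regulator list Dab2ip (1 of 10) and the lymphocyte list Gzma (1 of 6), and the other 15 lists held none. By symbol, 3 of 311 zinc finger genes (0.965%), 3 of 156 immune genes (1.92%) and 0 of 83 G protein-coupled receptors were among them. Predicted genes named Gm gave 17 of 999 (1.7%) and Rik genes 7 of 614 (1.14%). All genes had a share of 0.654%.

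Dorsal root Kif5A held a higher mean level than dorsal root input for 59 of the 83 genes, and 69.1% of all genes had that order. Every Kif5A library lay above every input library for 18 genes (21.7%), against 27.1% of all genes, and below for 3 genes (3.61%), against 8.71%. The 18 genes included Zfp709, Lrrc42, Igsf21, Zbtb48, Slc12a5, Nudt7, Tlr8, Mlx, Rap1gap and B430119L08Rik. Dorsal root Kif5A took part in the choice, so nothing is read from these shares.

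The input libraries tell in which tissue the 83 RNAs were more abundant, and these libraries took no part in the choice. No member passed the edgeR quasi-likelihood test of sciatic nerve against dorsal root input with an adjusted p under 0.05. In that test 63 of the 83 genes had enough reads to enter, and of all 12215 genes 2.33% were higher and 1.78% lower in sciatic nerve. With an unadjusted p below 0.05 the same test gave 4 members, 3 higher and 1 lower, against 14.6% of all genes. DESeq2 called 3 members, all higher in sciatic nerve, namely B430119L08Rik, Gm13573 and Syt15, where it called 4.72% of all genes higher and 4% lower. In the edgeR fit the median log2 difference was 0.09 for the members and 0.06 for all genes. In bulk RNA, fewer cells of a type and less RNA per cell cannot be told apart.

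Single libraries were compared as well. Every sciatic nerve input lay above every dorsal root input for 5 genes (6.02%), against 9.84% of all genes, and below for 7 genes (8.43%), against 10.3%. Those above were Syt15, Nfatc4, Nudt7, Gm13573 and Gm11274, and those below included Spats1, Cox7a2l, Psmc3ip and Teddm2. Syt15 had 144, 117 and 58 reads in sciatic nerve input and 56, 9 and 27 in dorsal root input, a log2 difference of 2.02 (SE 0.69) with an edgeR adjusted p of 0.189. Over 12 alternatives, edgeR fits and 1 DESeq2 fit, the adjusted p of Syt15 ran from 0.0106 to 0.592. The lowest came from edgeR without replicate 3 of sciatic nerve input, where the difference was 2.36. Leaving out that library also moved the edgeR calls over all genes from 503 to 2538. Gm13573, chosen for mention after its value was seen, had 14, 14 and 26 reads in sciatic nerve input and 3, 2 and 4 in dorsal root input, the smallest adjusted p of the members at 0.0602 (log2 difference 2.64). Its parent Rpl10a had 168, 127 and 288 reads in sciatic nerve input and 242, 187 and 173 in dorsal root input.

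Among genes lower in sciatic nerve input, Spats1 had 11, 10 and 8 reads in sciatic nerve input and 26, 22 and 74 in dorsal root input, a log2 difference of -1.94 (SE 0.70) with an edgeR adjusted p of 0.216. Cox7a2l had 13, 5 and 13 reads against 20, 28 and 24, a log2 difference of -1.14 with an adjusted p of 0.424. Dab2ip had 38, 30 and 175 reads in sciatic nerve input, so replicate 3 lay far from the others and the groups overlapped. Its log2 difference of 1.19 against 32, 7 and 67 reads in dorsal root input had an adjusted p of 0.642, and without replicate 3 of sciatic nerve input it was 0.16. Nudt7 had 14, 14 and 25 reads against 10, 14 and 4, a log2 difference of 1.04 (adjusted p 0.542), which turned to -0.57 when further transcripts of each table were added.

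Neither group of the comparison of sciatic nerve Kif5A with sciatic nerve input took part in the choice. The fit, however, took its estimate of the spread and its low-count filter from all 18 libraries, those that chose the genes included. All 83 members passed that filter, and some could do so through the groups that chose them. No member passed the edgeR quasi-likelihood test in either direction, where 0% of 12681 genes were called higher and 0.00789% lower. With an unadjusted p below 0.05 the test gave 7 members, 4 higher and 3 lower, against 6.07% of all genes. DESeq2 called none of the 28 members to which it gave an adjusted p, and 0.215% of all genes higher and 0.242% lower. Its unadjusted p was below 0.05 for 7 members, against 8.73% of all genes. The median log2 difference was 0.47 for the members and 0.02 for all genes, and it was positive for 57 of 83 members (68.7%), against 51.1% of all genes. Because of that filter these values are descriptions, and nothing is read from them. Fitted on the 6 compared libraries alone, no member was called either, and the adjusted p was 0.472 for Psmc3ip and Mlx and 0.486 for Zbtb48 and Btbd16. By mean CPM, Kif5A lay above input for 59 of the 83 genes, against 61.4% of all genes.

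Every sciatic nerve Kif5A library lay above every input library for 14 genes (16.9%), against 12.4% of all genes, and below for 5 (6.02%), against 6.56%. Psmc3ip, needed for meiotic recombination, had 12, 22 and 12 reads in Kif5A and 1, 0 and 0 in input. Scaled to library totals, the summed reads stood in a ratio of 43.8 (exact 95% Poisson interval 7.48 to 1770, counting error only). The fitted log2 difference of 4.86 (SE 1.14), which with 1 input read depends on the prior count, had an edgeR adjusted p of 0.506, the smallest of the members. Mlx, its neighbour on the other strand, had 26, 38 and 14 reads in Kif5A and 3, 0 and 3 in input, a log2 difference of 3.44 (SE 1.59, adjusted p 0.816). The 2 genes thus share both their direction and a stretch of the genome, and with strand not stated they cannot be counted as separate cases.

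Zbtb48 had 33, 98 and 29 reads in sciatic nerve Kif5A and 1, 0 and 12 in input, a log2 difference of 3.41 (SE 1.47) with an edgeR adjusted p of 0.781. Its Kif5A libraries lay above input in both tissues, as did those of B430119L08Rik, Dnmt1, Gm13573, Lrrc42 and Mlx. These 6 genes (7.23%) compare with 7.17% of all genes, and dorsal root Kif5A took part in their choice. In the other direction, Btbd16, which carries a BTB domain, had 14, 0 and 3 reads in sciatic nerve Kif5A and 47, 34 and 90 in input. Its log2 difference of -3.37 had an adjusted p of 0.806, while its dorsal root Kif5A counts of 76, 5 and 181 spanned the 55, 50 and 72 of input. Pcdhb16, the member with the most input reads, had a log2 difference of -0.77 (SE 0.65, adjusted p 0.936), with 97, 103 and 101 reads in Kif5A overlapping 130, 169 and 109 in input once scaled to library size.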

How the data were processed

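Axoplasm RNA of 6 groups (Kif5A precipitate, IgG precipitate and input of dorsal root and of sciatic nerve) was sequenced in 18 libraries. The values used are raw counts of reads per Ensembl transcript, whole numbers that the authors deposited in 1 table per tissue. The submitters' processing notes name CASAVA 1.8.2, edgeR and the build mm10 (GRCm38). Aligner, counter, use of strand and annotation release: not given in the sources used here. Both tables also hold 42 columns of other per-sample values, which were not used. Rows without a gene name (283 and 266), which held 0.138% to 0.237% of the counts of a library, were left out.

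Counts were summed per gene name over the 16878 transcripts in both tables. Levels are CPM, relative to the library's total over named rows in the table of its tissue, as mean ± SD of 3 libraries; per-kilobase levels divide by the GENCODE M21 transcript length. Tests used edgeR 4.0.16 under R 4.3.3 (quasi-likelihood, robust, TMM scaling, its default low-count filter by group), two-sided, with Benjamini-Hochberg adjustment over all genes tested and a threshold of 0.05. The SE given with a log2 difference is the size of that difference divided by the square root of the quasi-likelihood F statistic. It is thus derived from the test and is no separate estimate of the spread. The 6 inputs were fitted alone, and all 18 libraries together for sciatic nerve Kif5A against input. The scripts were tested on simulated data, in which the rarest genes were not among those changed. The input fit recovered 68.0% of 4-fold and 96.1% of 16-fold changes. The fit of sciatic nerve Kif5A against input recovered 38.1% and 76.7%, so a lack of calls does not show a lack of change. DESeq2 1.42.0, DESeq2's size factors, no filter, a replicate block, all transcripts and leaving out each library were alternatives.

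Same-numbered input libraries deviated together from their group means (correlations across 12681 genes of 0.203, 0.102 and 0.356), but sciatic nerve 2 with dorsal root 1 (0.253) and sciatic nerve 1 with dorsal root 2 (0.138) did so as well, and the labels say that both tissues came from the same animals, so the numbers may pair the inputs. The labels do not say that equal numbers mark the same animals, so the reported fit has no block.

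The genes and lists were chosen with earlier results of these data known. Genes named with values are, among standard symbols, those with the most CPM in dorsal root input, dorsal root Kif5A or sciatic nerve IgG, the smallest p-values in each tested comparison, members of the lists and symbol families, genes at the edge of the choice and genes with control reads on further transcripts; Rik and Gm genes come from the families. Limk1, Dnmt1, Jade1, Mast2, Tnf, Bmp15, Piwil1, Teddm2, Gm11274, Gm13573, Gm23527 and Rpl23a-ps2 fall outside this rule and were named after their values were seen.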

Additional observations from a re-analysis of the deposited data

Results flagged for a closer look

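Syt15, Dab2ip and Tldc2 had Kif5A above IgG in every dorsal root library and below IgG in every sciatic nerve library, so the order turned between tissues. Their mean sciatic nerve IgG levels were 34.5, 22.6 and 2.44 CPM, and their dorsal root IgG counts over the shared transcripts were 0. Dab2ip had 37 dorsal root IgG reads on further transcripts. The difference between tissues was not tested. The dorsal root direction is fixed by the choice of genes, so any member with this sciatic nerve order shows a turn. Every sciatic nerve Kif5A library lay below every IgG library for 3.61% of the members, against 4.57% of all genes. Sciatic nerve IgG also took part in the choice, so these shares are descriptions.

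Dorsal root IgG reads stood on transcripts that the dorsal root table lists and the sciatic nerve table does not, which the count over shared transcripts leaves out. They numbered 251 for Parg, 206 for Snx29, 151 for Nt5c3, 140 for Nudt7, 67 for Eif4g3, 55 for Psmc3ip, 37 for Dab2ip, 24 for Rap1gap, 14 for Mast2 and 10 for Jade1.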

How the results depend on the processing

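The 83 genes became 40 with at least 10 reads in each dorsal root Kif5A library and 13 with reads in every sciatic nerve IgG library. Leaving out 1 dorsal root IgG or Kif5A library gave 90 to 252 genes, with 170, 174 and 252 without IgG replicate 1, 2 and 3, so each control library removed many genes. Over all transcripts of each table the choice gave 81 genes, 73 of them shared. Their median dorsal root input level of 1.16 CPM was 1.29 CPM with TMM factors and 1.07 to 1.22 CPM without 1 input library. The members called between inputs numbered 0, and 3 with DESeq2. Leaving out 1 input library gave 0 to 4: the 4 came without replicate 3 of sciatic nerve input, which also moved the calls over all genes from 503 to 2538. The cause was not tested. With the replicate block no member was called between inputs (0 of the members, 682 of all genes) and 0 between sciatic nerve Kif5A and input, whose same-numbered libraries correlated at 0.0746, 0.24 and 0.286. The Kif5A against input comparison of sciatic nerve gave 0 members under all 12 alternatives run. The log2 difference of Nudt7 between inputs reversed to -0.57 over all transcripts. In every alternative run, the other named log2 differences kept their sign. Of the 83 genes, 20 had too few reads to enter the test between inputs.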
